A study of Mus musculus and Homo sapiens with 20 samples.

Results

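The 500 densest stitched clusters of accessible regions in HepG2, a human liver cancer cell line, were described here across 8 ATAC-seq libraries. They were chosen from the 4 libraries labelled Cont. Peaks overlapping by at least 1 bp were merged, the 161573 regions found in all 4 libraries were kept, and regions separated by gaps of up to 12.5 kb were joined into 44327 clusters on hg38. A region's count in a library was its highest peak count, its mean over the 4 libraries was summed over the regions of a cluster, and the 500 clusters with the highest sums were taken, which is 1.13% of all clusters. A cluster is named below by its rank in this order, so cluster 1 has the highest summed count. The ranking used the Cont counts, so the clusters' size and density in Cont are descriptions of the choice and were not tested.

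The study measured chromatin accessibility by ATAC-seq under control conditions or vitamin B2 deficiency, in HepG2 and in mouse hepatocytes. Only HepG2 at day 12 was analysed here, with 4 libraries labelled B2_minus and 4 labelled Cont. Both groups are labelled as the same line, and the labels name no other agent or genotype for it. Nothing in the labels tells if replicates were separate cultures, so the p-values measure the spread between these libraries only, which may be technical. For 8 of the 8 libraries the deposited file was named for the opposite condition to the title. Groups follow the titles, and the direction of every difference between the groups carries that doubt.

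In ATAC-seq, the transposase Tn5 cuts open chromatin, and cut sites accumulate over promoters, enhancers and other regions bound by transcription factors. Regulatory regions are not spread evenly: near genes that define a cell's identity, and in gene-rich stretches of a chromosome, many open regions lie close together. Joining neighbouring regions and ranking the joined clusters by total signal is the procedure by which super-enhancers are defined from ChIP-seq of histone acetylation or coactivators. Accessibility alone does not tell enhancers from promoters, so the clusters here are dense accessible domains and are not called super-enhancers. Vitamin B2, or riboflavin, is the precursor of the flavin cofactors FMN and FAD, which oxidoreductases, fatty acid oxidation and a histone demethylase family depend on. HepG2 gene names and sequences were not used here, so clusters and regions are given by hg38 coordinates alone.

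Each library listed 253125 to 285530 peaks, nearly all 200 bp wide, with 5705857 to 7856370 tags in total. The lowest listed count was 6 to 8 tags, so a weaker site was absent from a list and not listed at 0. Replicate counts varied less than counting noise, with a mean variance of 0.573 times the mean count in Cont and 0.535 times in B2_minus over the regions of the 500 clusters. Counting no more than 1 tag at each position would give such compression and understate differences at strong regions; whether that was done is not known.

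The 500 clusters held 21473 of the 161573 regions, or 13.3%, and 15.8% of the summed counts. They covered 51.1 Mb. A cluster contained 11 to 264 regions with a median of 37, whereas the median over all 44327 clusters was 2 and 20017 clusters were single regions. Clusters spanned 13.0 to 611.6 kb with a median of 93.0 kb, and regions covered a median of 13.3% of that span. The dense clusters were thus chains of many short regions. The stretches between them were not free of peaks, since 53611 regions of the 500 clusters had a peak in at least 1 of the 8 libraries.

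Within the 500 clusters, the summed count followed the number of regions more closely than their mean strength. It had a Spearman correlation of 0.84 with the number of regions and of 0.03 with the mean count per region. These are descriptions only, because both enter the sum and the 500 were chosen on that sum. In 434 of the 500 clusters the mean count per region was above the mean of all regions, 31.6 tags. The mean count per region was 37.5 tags inside the 500 clusters and 30.7 tags in the other clusters. The strongest region of a cluster carried only 1.72 to 18.5% of its summed count, with a median of 8.41%. Cluster 307 (chr21:6362238-6375263) was the exception in form: 11 regions in 13.0 kb averaged 114.5 tags, the highest mean of the 500. Cluster 492 (chr2:215359278-215460938) lay at the other end, with 48 regions averaging 21.0 tags.

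**Figure D1:**
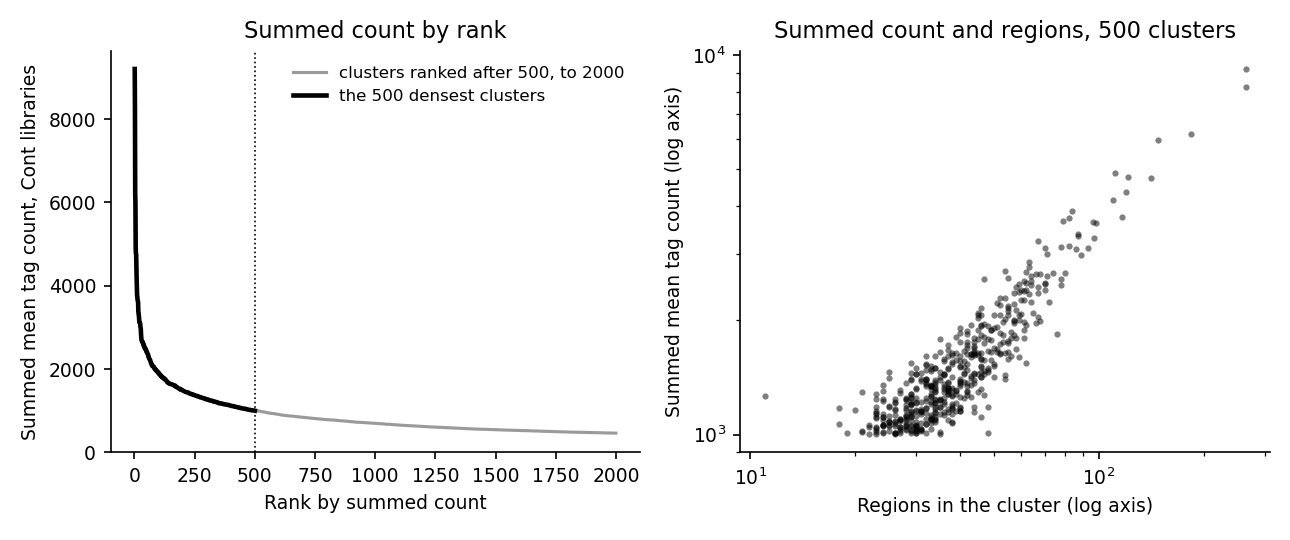
Left, summed mean tag count of the Cont libraries against rank for clusters 1 to 2000, with the dotted line at rank 500. Right, summed count against number of regions for the 500 clusters on log axes; the curve falls from 9201 to 1002 tags without a step at rank 500, and clusters with more regions have higher sums.

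Summed counts fell from 9201 tags for cluster 1 to 1002 tags for cluster 500. The last 2 clusters taken (chr22:46105964-46179083 and chr19:48933462-48971233) had summed counts of 1003 and 1002 tags, and the first 2 left out (chr14:22536981-22614823 and chr16:81532657-81597547) had 1001 and 999.2 tags. The boundary is therefore a point on a smooth curve and separates no classes.

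Cluster 1 (chr20:49872187-50483760) was both the widest, at 611.6 kb, and, with cluster 2, the one with most regions, 264. Cluster 2 (chr20:62288589-62847827) spanned 559.2 kb on the same chromosome with a summed count of 8247. Cluster 3 (chr6:43874331-44276596) held 184 regions and 6214 tags. The next in order were cluster 4 (chr17:81890429-82119140, 5973 tags), cluster 5 (chr14:24229060-24443851, 4908 tags), cluster 6 (chr17:82204859-82389152, 4776 tags) and cluster 7 (chr9:137021852-137324013, 4748 tags). Clusters 8 (chr17:76427496-76738083), 9 (chr20:64024174-64256816) and 10 (chr3:50189341-50395314) had 4356, 4144 and 3887 tags. Of these 10 clusters, 3 lay on chromosome 20 and 3 on chromosome 17.

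That uneven placement held over all 500. Chromosome 17 carried 71 clusters (14.2% of the 500, against 5.68% of all regions), chromosome 16 carried 58 (11.6% against 4.97%) and chromosome 20 carried 38 (7.6% against 4.50%). About 1 in 3 regions of these chromosomes lay in a dense cluster: 33.7% on chromosome 17, 32.5% on chromosome 16 and 31.1% on chromosome 20. Chromosome 19 held 31 clusters (6.2% against 3.90%). At the low end, chromosomes 13 and X had 1 cluster each, chromosomes 18 and 21 had 3 each, and chromosome 15 had 4.

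HepG2 is known to carry extra copies of chromosomes 2, 14, 16, 17 and 20. Together these held 240 of the 500 clusters (48%) and 28.3% of all regions, and their regions averaged 33.2 tags against 30.9 on the other chromosomes. Inside the 500 clusters, which were chosen on these same counts, the means were 37.6 tags on these chromosomes and 37.5 on the others. Chromosome 2 alone held 9.4% of the clusters and 9.31% of all regions, and chromosome 19, outside that set, had the highest mean count of all chromosomes, 37.2 tags per region. The part of copy number or gene density in this placement was not tested.

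**Figure D2:**
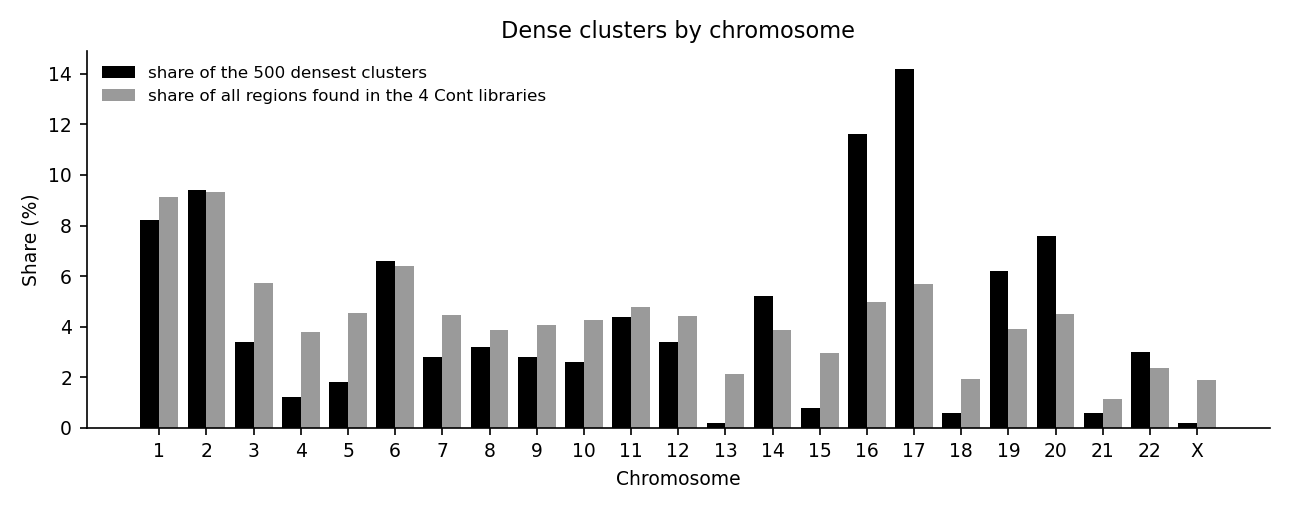
Share of the 500 dense clusters (black) and of all regions found in the 4 Cont libraries (grey) on each chromosome, in percent. Chromosomes 16, 17 and 20 hold 11.6, 14.2 and 7.6% of the clusters against 4.97, 5.68 and 4.50% of the regions.

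Dense clusters also lay near each other. For 94 of them the nearest dense cluster was within 50 kb and for 145 within 100 kb, so that a wider gap would have joined them. There were 14 runs of 3 or more, with successive members within 100 kb, holding 51 clusters. The longest run, 6 clusters, covered 608.6 kb of chromosome 16 (chr16:30510201-31118804) with 198 regions. A run of 5 covered 932.4 kb of chromosome 17 (chr17:81636354-82568713), included clusters 4 and 6, and reached a summed count of 14768 over 391 regions, above that of cluster 1. Cluster 1 itself belonged to a run of 4 over 1120 kb of chromosome 20 (chr20:49575600-50695908).

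Between the labelled groups, the dense clusters as a set held nearly the same share of the listed tags. The share was 15.46% ± 0.167 (SD, n = 4) in Cont and 15.65% ± 0.23 (SD, n = 4) in B2_minus. The Cont libraries lay between 15.3 and 15.7% and the B2_minus libraries between 15.45 and 15.9%, so the groups overlapped. The sequencing depth is unknown, but listed totals differed: in B2_minus the libraries with 6184400 and 6437796 listed tags had 15.9 and 15.8%, and those with 7224261 and 7856370 tags had 15.45% each. In Cont, the libraries with 5705857 and 5892942 tags had 15.5 and 15.7%, and those with 6422260 and 7188506 had 15.3 and 15.35%. The part of the listed totals in the shares was not tested.

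Applying the same rule to the 4 B2_minus libraries gave a list that overlapped 425 of the 500 clusters (85%). Counted from the other side, 426 of the 500 clusters of that list (85.2%) overlapped a Cont-chosen cluster. Clusters 1 to 100 were all found in it, 83 of them among its first 100. The 75 clusters not found had a median rank of 398, and 53 of them were split into pieces in B2_minus. Over all 500 clusters 123 were split, so many split clusters stayed in the list. What split each cluster was not examined. Cluster 486 (chr17:44155765-44232430) shows how a split moves a rank: in 3 pieces, its best piece ranked 2804 in B2_minus, while its scaled tags were 960.9 in Cont and 962.3 in B2_minus. In the opposite direction cluster 208 overlapped a cluster ranked 47 in the B2_minus list, although its own tags were lower in B2_minus. Rank changes between the lists therefore followed the joining of regions as well as their counts.

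Changes in accessibility were read from the regions with a peak in all 8 libraries, 18977 of them inside the 500 clusters. A cluster's value in a library is the sum over these regions of the highest peak count, divided by a TMM size factor with a mean of 1 over libraries, and is called scaled tags. All 500 clusters had a value. Counts over 40426 clusters were tested with edgeR's quasi-likelihood test, and a cluster was called at a Benjamini-Hochberg adjusted p under 0.05.

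Small rises were common among the dense clusters and falls were few. By that test 129 of the 500 (25.8%) were called higher in B2_minus and 19 (3.8%) lower, against 9% and 7.12% of all clusters tested. The median summed count was 1368 tags in the 500 and 41.75 over all ranked clusters. Called changes were larger among the weaker clusters, as given below, so these shares do not compare changes of like size. The 4 B2_minus values lay above all 4 Cont values in 131 (26.2%, against 9.38% of all clusters) and below them in 27 (5.4%, against 7.64%). The median log2 fold change was 0.03 over the 500 and -0.01 over all clusters. The called rises had a median log2 fold change of 0.10 (1.07-fold) and the called falls of -0.08 (0.949-fold). In 439 clusters the log2 fold change was under 0.1 in size, and in 3 it was over 0.2.

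Replicates of a cluster differed little. The median coefficient of variation was 2.15% in Cont and 2.31% in B2_minus, and the median SE of the log2 fold change was 0.026. The members were chosen on Cont, so these counts are not independent of the choice. With DESeq2 the counts were 42 higher and 2 lower, and with peaks of at least 20 tags only they were 58 and 34, a less one-sided split. With that minimum the median log2 fold change of the dense clusters was 0.006, against 0.03 in the main setting. It was 0.025 to 0.049 under the other settings. Call shares of all clusters under these settings were not compared. Leaving out Cont replicate 2 gave 80 higher and 16 lower. The lower count was 9 to 12 when any of Cont replicates 1, 3 and 4 or B2_minus replicates 3 and 4 was left out.

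This pattern was shared with clusters just below the choice. Among the next 500 clusters, 22.2% were called higher and 4% lower with a median log2 fold change of 0.03, and among the clusters after rank 1000 and up to 2000 the shares were 21.9 and 4.4% with a median of 0.03. Beyond rank 5000 they were 7.46 and 7.42% with a median of -0.02. Call shares therefore changed along the whole ranking, in which summed count and number of regions both decline, and showed no step at rank 500. The difference between the ranks was not tested. The 240 clusters on chromosomes 2, 14, 16, 17 and 20 had 52 called higher and 14 lower with a median of 0.02. The other 260 had 77 higher and 5 lower with a median of 0.04. Over all tested regions, dense or not, the medians on these chromosomes were -0.02, -0.01, -0.03, -0.02 and -0.05 in that order. On each other chromosome the all-region median lay between -0.01 and 0.03. The part of such chromosome-wide differences in these counts was not tested.

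**Figure D3:**
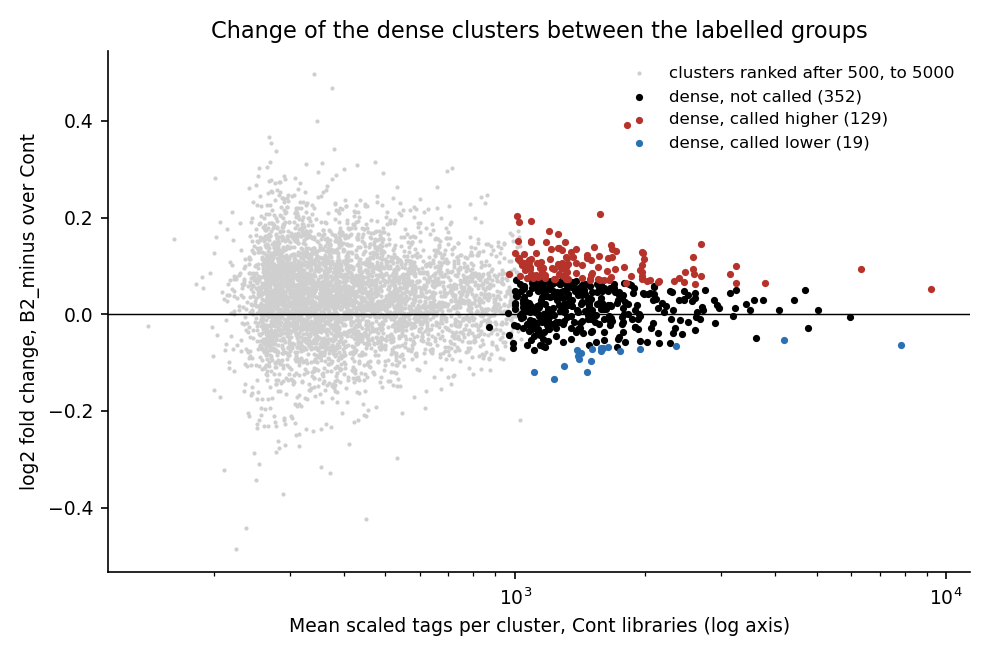
log2 fold change of B2_minus over Cont against mean scaled tags in Cont (log axis) for the 500 dense clusters (black, red and blue by call) and for those after rank 500 and up to 5000 (grey). Most dense clusters lie within 0.1 of 0, and cluster 119 stands alone at 0.39.

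Cluster 119 (chr20:57457109-57597903, 140.8 kb, 58 regions) had the largest difference of the 500. Its scaled tags were 1792, 1783, 1827 and 1854 in Cont replicates 1 to 4 and 2439, 2427, 2344 and 2318 in B2_minus. Every B2_minus library lay above every Cont library, with a gap between the groups far wider than the spread inside either. The means were 1814 ± 32.9 and 2382 ± 59.9 (SD, n = 4), a log2 fold change of 0.39 (1.31-fold; SE 0.023; edgeR adjusted p = 7.86e-32).

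No region called higher had its centre in the first 70 kb of cluster 119. Of its 53 tested regions, 25 were called higher and 0 lower by edgeR, and all 25 had their centres between 70.2 and 136.3 kb from the cluster's start. Most tested regions lay in that stretch too, since 9 of the 53 came before the first called region and 44 from it on. The 25 summed to 919.7 scaled tags in Cont and 1392 in B2_minus, with log2 fold changes from 0.24 to 1.32, a sum over regions selected by their call. The 28 regions not called summed to 900.5 and 982.2 tags, and 22 of them had a positive log2 fold change. The strongest region of the cluster, at chr20:57560850-57561149 and 103.9 kb from the start, had 151.4, 136.8, 155.4 and 140.9 tags in Cont and 156.3, 141.6, 145.4 and 140.6 in B2_minus (0.00, edgeR adjusted p = 0.999). It lay among the regions called higher and its groups overlapped. The largest relative rise was at chr20:57546164-57546825, where Cont had 8.29, 11.1, 15.3 and 14.3 scaled tags and B2_minus 32.7, 36.9, 25.9 and 26.8 (log2 fold change 1.32, edgeR adjusted p = 9.70e-08). Its 4 Cont values lay close to the lowest listed counts, and all 4 B2_minus values lay above them.

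The neighbours of cluster 119 did not pass the test. Cluster 998 (chr20:57381758-57442060), 15.1 kb before it, had 682.1 scaled tags in Cont and 707.4 in B2_minus (log2 fold change 0.05, edgeR adjusted p = 0.283). The single region ranked 27301, 24.6 kb after it, had 28.9 and 24.4 tags (-0.23, adjusted p = 0.373). The rise of cluster 119 thus had no called counterpart in the adjoining clusters.

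**Figure D4:**
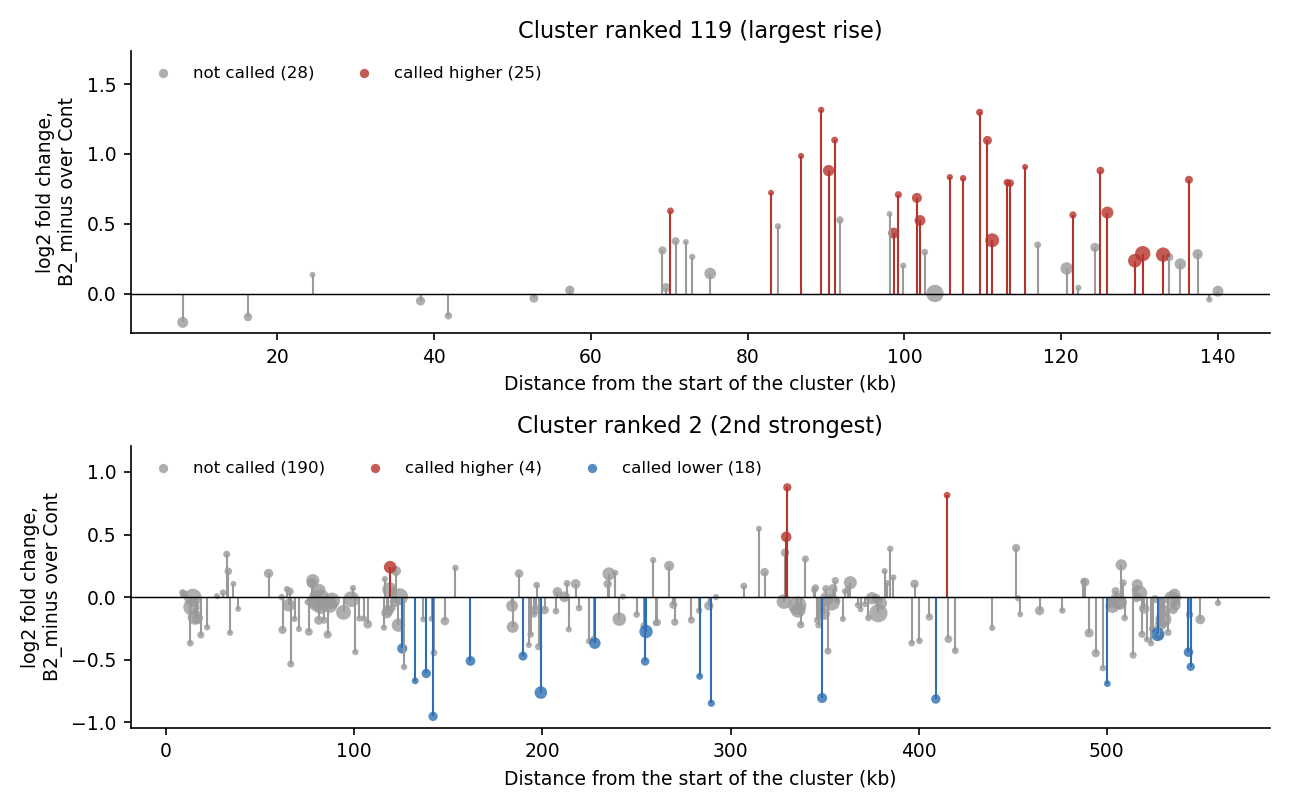
log2 fold change of B2_minus over Cont for each tested region of clusters 119 (top) and 2 (bottom), placed by distance from the cluster's start in kb. Point size grows with mean scaled tags in Cont. In cluster 119 the 25 regions called higher lie between 70.2 and 136.3 kb, as do most tested regions. In cluster 2 the 18 called lower are spread from 125.5 to 544.6 kb.

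Of the clusters called higher with no overlap between the groups, the 7 after cluster 119 rose between 1.11-fold and 1.16-fold. Cluster 184 (chr14:34005445-34105291) had 1571, 1502, 1619 and 1605 scaled tags in Cont and 1967, 1881, 1769 and 1678 in B2_minus (log2 fold change 0.21, SE 0.027, edgeR adjusted p = 8.11e-10). Its B2_minus libraries were widely spread, with an SD of 126.8 tags, but the lowest was above the highest Cont library. Of its 34 tested regions, 8 were called higher and 0 lower.

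Cluster 470 (chr1:228782896-228867390) had 1035, 1004, 997.8 and 1012 scaled tags in Cont and 1170, 1231, 1161 and 1115 in B2_minus (0.20, edgeR adjusted p = 9.53e-09). Cluster 467 (chr5:149400461-149486058) had 1029, 1081, 1105 and 1128 in Cont and 1286, 1228, 1239 and 1212 in B2_minus (0.19, edgeR adjusted p = 3.29e-08). In both, every B2_minus library exceeded every Cont library by more than the SD of either group. Cluster 495 (chr3:4976177-5027113) rose from a mean of 1020 to 1166 tags, cluster 392 (chr7:1504428-1600348) from 1198 to 1353, cluster 314 (chr12:89334772-89401701) from 1258 to 1409 and cluster 436 (chr2:20411559-20475360) from 1015 to 1127. Between 5 and 8 regions were called higher in each of the 7, and at most 1 lower.

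The largest falls were smaller than the largest rises, with log2 fold changes from -0.13 to -0.08. Cluster 328 (chr17:72556972-72633492) had 1255, 1195, 1264 and 1210 scaled tags in Cont and 1158, 1100, 1128 and 1100 in B2_minus (-0.13, SE 0.027, edgeR adjusted p = 0.000104). Cluster 251 (chr17:76345425-76408822) had 1436, 1418, 1513 and 1502 in Cont and 1341, 1346, 1324 and 1372 in B2_minus (-0.12, edgeR adjusted p = 0.000248). In both, the highest B2_minus library lay just below the lowest Cont library. Cluster 328 had 6 regions called lower and 1 higher, and cluster 251 had 4 and 1.

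Cluster 304 (chr12:9064652-9136291) fell from 1106 to 1016 tags (-0.12, edgeR adjusted p = 0.000911) with 0 of its 34 tested regions called. Of these regions 30 had a negative log2 fold change, with values from -0.56 to 0.26 over all 34. Cluster 273 (chr16:71961469-72099634) fell from 1295 to 1205 tags, cluster 208 (chr20:17918337-18033563) from 1498 to 1401 and cluster 225 (chr11:73139526-73242836) from 1399 to 1317. Cluster 216 (chr16:89154364-89217732) had means of 1407 and 1323 and cluster 242 (chr22:28741714-28839307) of 1423 and 1345. The call of cluster 216 was lost without Cont replicate 4 (-0.08, edgeR adjusted p = 0.0545). That of cluster 242 was lost without Cont replicate 3 (adjusted p = 0.0835), B2_minus replicate 1 (0.0527) or B2_minus replicate 4 (0.058), and with peaks summed (0.125).

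**Figure D5:**
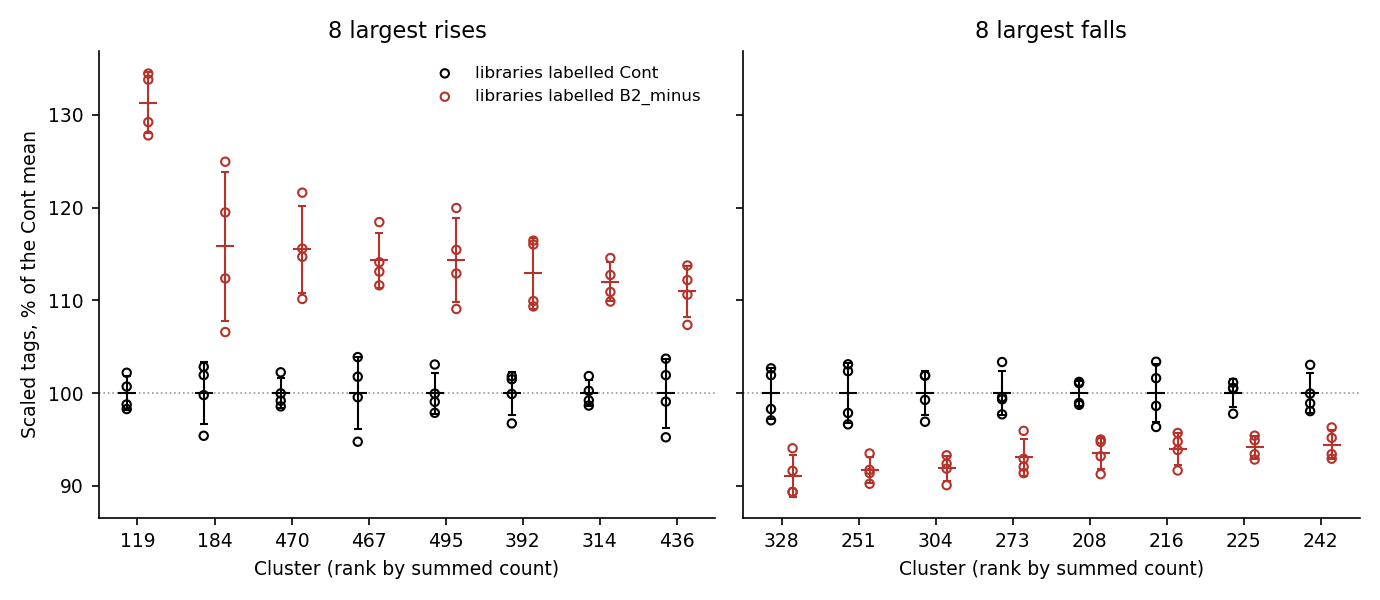
Scaled tags of each library as a percentage of the cluster's Cont mean, for the 8 largest rises (left) and 8 largest falls (right) among called clusters whose groups do not overlap. Open circles are libraries, dashes are group means and bars are SD (n = 4); cluster 119 stands above all others, and the group means of the falls are closer to 100% than those of the rises.

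The 10 strongest clusters changed little. Clusters 4, 5, 7, 8 and 10 had log2 fold changes between -0.03 and 0.03 and did not pass edgeR's test at adjusted p values of 0.325 to 0.871. Cluster 3 had 6231, 6234, 6495 and 6447 scaled tags in Cont and 7008, 6885, 6638 and 6600 in B2_minus (0.09, SE 0.018, adjusted p = 3.30e-05), and it was the only rise of the 10 without overlap between the groups. Cluster 2 had 7802, 7794, 7987 and 7877 in Cont and 7822, 7563, 7414 and 7355 in B2_minus (-0.06, SE 0.017, adjusted p = 0.00480). Its groups overlapped, since 1 B2_minus library reached the Cont values, and its call was lost when peaks were summed within regions (adjusted p = 0.0734).

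Cluster 1 had means of 9195 ± 120 and 9540 ± 206 scaled tags (SD, n = 4), with a log2 fold change of 0.05 (SE 0.016, edgeR adjusted p = 0.0163). This call was lost when Cont replicate 1, Cont replicate 2, B2_minus replicate 1 or B2_minus replicate 2 was left out, at adjusted p values of 0.0978, 0.07, 0.0897 and 0.0537, and also when libraries were scaled by listed tags (0.121) or peaks were summed (0.0613). Cluster 9 had 4209, 4216, 4227 and 4169 tags in Cont and 4089, 4078, 4054 and 3998 in B2_minus (-0.05, edgeR adjusted p = 0.0401), with no overlap. Its call was lost without any single library except B2_minus replicate 1, at edgeR adjusted p values from 0.0563 to 0.104. Scaling by listed tags also lost it (0.082). Clusters 1, 2 and 9 lie on chromosome 20. All tested regions of that chromosome had a median log2 fold change of -0.05, against -0.01 over all chromosomes. The part of that offset in these cluster values was not tested. Cluster 6 had means of 4707 and 4873 (0.05, edgeR adjusted p = 0.0607) and was called only without Cont replicate 3 (adjusted p = 0.0132) or B2_minus replicate 4 (0.00531).

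The strongest single region of each of these 10 clusters did not pass the test. In cluster 1 it lay at chr20:50172328-50172534 and had 174.2, 159, 166 and 167.3 scaled tags in Cont and 174.2, 180.6, 164 and 143.1 in B2_minus (log2 fold change -0.02, edgeR adjusted p = 0.898). In cluster 5 it lay at chr14:24242574-24242828, with 203.8 ± 20.5 tags in Cont and 198.7 ± 15.3 in B2_minus (SD, n = 4). Over the 10 regions the log2 fold changes ran from -0.07 to 0.04, with adjusted p values of 0.556 or more. Differences at such strong regions may be compressed by the counting, as stated above.

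Regions inside the clusters were called in both directions. Over 141079 regions tested with edgeR, 5.5% were called higher and 3.95% lower. Of the 18977 in the dense clusters, 1084 (5.71%) were called higher, with a median log2 fold change of 0.51, and 498 (2.62%) lower, with a median of -0.50. A region's larger SE means that only larger changes could be called than for a cluster. The share called higher is near that of all regions, and the share called lower is below it. Without Cont replicate 2 the counts were 825 and 329. DESeq2 called 181 higher and 29 lower, and edgeR with its variance held at or above Poisson called 408 and 97.

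Regions called in both directions were found in 199 clusters (39.8%), only higher ones in 179, only lower ones in 68 and none in 54. The next 500 clusters had both in 126 (25.2%), with a median of 20 tested regions against 33 in the dense clusters, so the number of regions tested differed between the sets. Of the 352 clusters not called as a whole, 301 held at least 1 called region and 138 held both kinds. Such counts grow with the number of regions tested, and 5.71% of dense-cluster regions were called higher and 2.62% lower. They were not compared with calls spread evenly over regions. Within a cluster, the SD of the region log2 fold changes had a median of 0.23, and the median SE of a region's log2 fold change was 0.148. How much of that SD is measurement error was not tested.

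The share of regions called higher depended on strength. All tested regions were ranked by mean scaled tags into 10 classes of equal size. The share of dense-cluster regions called higher was 0.265% in the weakest class, 9.66, 8.10 and 9.16% in classes 7, 8 and 9 (31.6 to 80.2 tags) and 4.68% in the strongest. Outside the dense clusters the shares were 0.647% in the weakest class, 8.46, 9.88 and 9.28% in classes 7, 8 and 9 and 4.04% in the strongest. Shares called lower in classes 7, 8 and 9 were 3.7, 3.5 and 3.2% in dense clusters, against 5.8, 5.4 and 3.6% outside. In the weakest class they were 1.2% against 2.1%, and in the strongest, the other way, 1.8% against 1.3%. In dense clusters the median log2 fold change rose from -0.07 in the weakest class to 0.03 in class 6. In the stronger classes it lay between 0.01 and 0.03, at 0.02 in the strongest. Outside the dense clusters it was -0.08 in the weakest class and 0.04 in the strongest. The part of counting depth in this trend was not tested.

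Cluster 2 had 18 regions called lower and 4 called higher among 212 tested, and they were interspersed. Of all 212, 65 had a positive log2 fold change, and the median was -0.09. The largest fall in cluster 2, at chr20:62430241-62430670, took scaled tags from 33.2, 36.1, 40.0 and 31.9 in Cont to 16.9, 23.6, 19.5 and 13.4 in B2_minus (-0.95, SE 0.17, edgeR adjusted p = 4.88e-06). Another, at chr20:62618585-62618904, rose from a mean of 26.7 to 49.1 tags (0.88, edgeR adjusted p = 3.30e-08). The groups did not overlap at either region.

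Cluster 3 had 17 regions called higher and 5 lower among 172, and cluster 1 had 16 and 2 among 236. The largest rise among the 10 strongest clusters was in cluster 3 at chr6:44034190-44034870, where Cont had 11.4, 19.4, 16.5 and 17.6 scaled tags and B2_minus 38.0, 34.9, 33.4 and 34.3 (1.10, SE 0.17, edgeR adjusted p = 2.90e-07). All B2_minus libraries had more tags than any Cont library. In cluster 1 the regions called higher were scattered from 27.7 to 568.6 kb of the cluster, with log2 fold changes of 0.22 to 0.78. Of all 236 tested regions of cluster 1, 123 had a positive log2 fold change, and the median was 0.01.

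Cluster 53 (chr14:94277242-94434230) was chosen after its values were seen, as the cluster with the most regions called in equal number each way. Its total had means of 2323 ± 40.5 and 2260 ± 39.0 scaled tags (SD, n = 4; log2 fold change -0.04, edgeR adjusted p = 0.241). The 5 regions called higher had centres 45.5 to 91.9 kb from the cluster's start and summed to 213.2 tags in Cont and 275.1 in B2_minus. The 5 called lower had centres 99.2 to 108.5 kb from the start and summed to 188.6 and 134.6. The rises and falls thus occupied adjoining stretches. Singly these calls were weak, since 6 of the 10 were lost when some 1 library was left out and 9 with DESeq2.

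Over all 500 clusters the region with the largest rise was in cluster 436, at chr2:20430954-20431266. Cont had 11.4, 8.32, 14.1 and 13.2 scaled tags there and B2_minus 31.7, 46.2, 47.2 and 39.3 (log2 fold change 1.82, SE 0.18, edgeR adjusted p = 3.07e-16). The largest fall was in cluster 143, at chr14:94624301-94624956, from 15.6, 14.8, 21.2 and 20.9 tags to 8.45, 7.18, 6.48 and 6.70 (-1.31, edgeR adjusted p = 3.71e-06). The groups were apart at both. The lower group lay near the lowest listed count of 6 to 8 tags in cluster 143, and between 8.32 and 14.1 scaled tags in cluster 436. That listing minimum bounds how large a fold change can appear.

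Regions found in every library of one label and in none of the other were few. Inside the 500 clusters, 73 regions had a peak in all 4 B2_minus libraries and in no Cont library, and 80 had the reverse, with median counts of 9.25 and 8.5 tags. These are 0.136% and 0.149% of the 53611 regions with any peak there. Over all 500015 HepG2 regions there were 1022 (0.204%) and 868 (0.174%). Most were near the listing minimum, so their absence from a list can mean a slightly lower count. A few were not weak: in cluster 240, chr6:47076111-47076330 was listed with unscaled counts of 85, 89, 91 and 93 tags in B2_minus and in no Cont library. In cluster 25, chr17:50893210-50893555 was listed with 55, 54, 43 and 44 tags in Cont and in no B2_minus library. These were counted without a test, and a region's edge shifting out of overlap was not examined.

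Of the 51 clusters in runs, 7 were called higher and 4 lower by edgeR, against 25.8% and 3.8% of the 500 and 9% and 7.12% of all clusters. The shares over all clusters include many weaker clusters, in which called changes were larger. In 6 of the 14 runs no cluster was called, and 1 run held calls in both directions. Whether neighbours differed was not tested. In the run that holds cluster 1, clusters 394 and 1 were called higher (0.08 and 0.05) and clusters 237 and 168 were not called (-0.01 and 0.06). In the run with both directions (chr20:17605306-18033563), cluster 363 was called higher (0.08), cluster 32 was not called (0.01) and cluster 208 was called lower (-0.10). A run on chromosome 2 (chr2:20411559-20697834) had positive values throughout, with clusters 436 and 55 called higher (0.15 and 0.07) and cluster 405 not called (0.06).

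Cont regions inside and outside the dense clusters were found in B2_minus at close to the same rate. Of the 21473 regions in dense clusters, 18431 (85.8%) had a peak in all 4 B2_minus libraries, against 85.6% of the other regions.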

How the data were processed

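Each deposited file lists the ATAC-seq peaks of 1 library with a whole-number tag count per peak. Bowtie2, HOMER and hg38 are named in the submitters' processing notes, without versions; the sources used here do not give peak thresholds or the handling of duplicates and read ends. That the values are unscaled counts made by the authors was inferred from the deposited values, since the files have no header. Chromosomes 1 to 22 and X were used, leaving out 0.131% of peaks. Listed totals are not sequencing depth, which is unknown.

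Clusters were built and read as described above. Counts were tested with edgeR 4.0.16 in R 4.3.3 (TMM, quasi-likelihood F test without a Poisson lower bound on the variance, no covariates), over 40426 clusters or 141079 regions, with Benjamini-Hochberg adjustment at 0.05. SE is the log2 fold change over the square root of F. DESeq2 1.42.0 and limma 3.58.1 on log2(tags + 1) were alternatives, with other scaling, stitching, thresholds and left-out libraries. The scripts were tested on simulated data.

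The clusters, lists and form of the test were chosen with earlier results of these data known. Clusters were named by rule: the 10 strongest, the 8 largest rises and 8 largest falls among called clusters without overlap, and those at the boundary. Within the 10 strongest, the strongest and most changed regions were named. Other clusters were named after their values were seen. HepG2 gene lists and marker genes were not analysed here.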

Additional observations from a re-analysis of the deposited data

Results flagged for a closer look

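In cluster 6, the B2_minus library of replicate 4 had 4700 scaled tags, against 4934, 4941 and 4915 in the other B2_minus libraries. The gap to its nearest neighbour took up 0.889 of the group's range, past Dixon's 95% limit for 4 values. Of 58 groups of 4 examined in this way, this was the only one past the limit, and chance alone passes about 1 in 20. Cluster 6 was not called with that library (edgeR adjusted p = 0.0607) and was called without it (adjusted p = 0.00531).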

How the results depend on the processing

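The calls are limited by the counts, which are of unknown depth, cut at 6 to 8 tags and less variable than Poisson, and by labels that the file names oppose. Of 500 clusters, 148 were called (129 higher, 19 lower). DESeq2 called 44 (42 and 2), the sum of peaks per region 84 (75 and 9) and peaks of at least 20 tags 92 (58 and 34). Leaving out 1 library gave 96 to 171. The other settings gave 99 to 182, and all settings called more clusters higher than lower. With peaks of at least 20 tags the median log2 fold change of the dense clusters was 0.006, against 0.03 in the main setting. Of 18977 regions, 1582 were called (1084 and 498). DESeq2 called 210 (181 and 29), edgeR bounded at Poisson variance 505 (408 and 97), the sum of peaks 843, and regions of the Cont libraries with missing peaks as 0 gave 801. Leaving out 1 library gave 1154 to 1420. The share of Cont tags in the clusters, 15.46%, became 7.96% with gaps up to 5 kb, 27.6% with gaps up to 25 kb and 12.4% with peaks of at least 20 tags. The Cont and B2_minus lists shared 425 clusters, and 403 to 449 under the alternatives. Except where stated, the cause was not tested. Of 220 alternative values of the 20 named clusters that were called, 198 kept the call, 22 lost it and 0 reversed. These came from scaling by listed tags, summed peaks, the replicate block and each left-out library. DESeq2 and the Poisson bound, which called fewer clusters, were not among them. Of 208 alternative values of 15 named regions, 158 kept the call, 50 lost it and 0 reversed, and all 50 were in cluster 53.

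Same-numbered replicates did not deviate together (correlations from -0.105 to 0.003 over clusters, and 0 of 4 correlated best with its own number), so the numbers were not used as pairs. With the replicate block, 106 clusters (96 higher, 10 lower) and 1532 regions were called.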
